A study of Homo sapiens with 15 samples.

Results

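The genes described here are 10 that encode aldo-keto reductases or products of the antioxidant programme driven by the transcription factor NRF2: AKR1C1, AKR1C2, AKR1C3, AKR1B1, NQO1, GCLC, GCLM, TXNRD1, SRXN1 and GSTA1. All 10 are rows of the deposited count table, which lists 15510 genes, and all 10 passed the filter on low counts. AKR1C1 and AKR1C2 passed only with the RasV12 libraries, and GSTA1 only with those of AKTmyr. The set was chosen by measured values, namely the large differences in AKR1C1 and GSTA1 counts between lines carrying different oncogenes. Contrasts between oncogene lines are therefore given below as descriptions, with no test. The same holds for AKR1C1, AKR1C2, AKR1C3 and GSTA1 in every comparison of an oncogene line with T53D4, since those comparisons use the same oncogene libraries. The other 6 members were tested against T53D4, and all 10 were tested between T53D4 and ARPE19.

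ARPE19 is an established human line from retinal pigment epithelium, and 4 lines were made from it by transfection. The parental line is labelled as having no transfection. By its labels, T53D4 received 2 plasmids, one for hTERT and the p53 inhibitor p53DD and one for cyclin D1 and the inhibitor-resistant kinase CDK4R24C. The other 3 lines received these plasmids and 1 more each: H-RasV12, an active RAS, in RasV12, MEK-DD, an active MEK kinase, in MekDD, and myr-HA-Akt, an AKT kinase anchored to membranes, in AKTmyr. Their disease state is given as transformed for RasV12 and AKTmyr, weakly transformed for MekDD and not transformed for the remaining pair. Poly(A) RNA was sequenced from 3 libraries per line, each from its own thawed vial of cells grown as adherent cultures with 10% FBS. Each oncogene is represented by 1 line, and T53D4 is the only line labelled with the shared plasmids alone. The p-values below therefore measure line differences against vial-to-vial spread and say nothing of independent transfections.

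NRF2 (gene NFE2L2) is held at a low level in resting cells by KEAP1, an adaptor that marks it for degradation. Oxidants and electrophiles modify KEAP1, NRF2 then accumulates, pairs with a small MAF protein (MAFF, MAFG or MAFK) and binds antioxidant response elements, while BACH1 competes for the same elements as a repressor. Aldo-keto reductases use NADPH to reduce aldehydes and ketones on lipids, sugars and steroids. Glutathione transferases join glutathione to electrophiles, and the retinal pigment epithelium, which takes up oxidised photoreceptor lipid, is known for its dependence on these defences.

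The promoter windows of 4 genes are shown because the members of each pair share sequence and part of their reads cannot be told apart: AKR1C1 with AKR1C2, and the member GSTA1 with its non-member neighbour GSTA2. Each window runs from 250 bases before to 50 bases after the gene start and comes from RefSeq (GRCh38.p14), in which all 10 members had an entry. The windows are chr10:4963165-4963464 on the plus strand for AKR1C1, chr10:5003808-5004107 on the minus strand for AKR1C2, chr6:52803767-52804066 on the minus strand for GSTA1 and chr6:52763426-52763725 on the minus strand for GSTA2. Capitals mark bases that differ from the partner window or have no counterpart in it.
AKR1C1: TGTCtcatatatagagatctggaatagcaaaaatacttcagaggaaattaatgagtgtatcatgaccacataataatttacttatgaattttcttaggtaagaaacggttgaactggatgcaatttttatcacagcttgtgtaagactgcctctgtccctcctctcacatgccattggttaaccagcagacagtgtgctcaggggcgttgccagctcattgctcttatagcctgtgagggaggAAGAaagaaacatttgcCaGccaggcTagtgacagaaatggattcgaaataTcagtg
AKR1C2: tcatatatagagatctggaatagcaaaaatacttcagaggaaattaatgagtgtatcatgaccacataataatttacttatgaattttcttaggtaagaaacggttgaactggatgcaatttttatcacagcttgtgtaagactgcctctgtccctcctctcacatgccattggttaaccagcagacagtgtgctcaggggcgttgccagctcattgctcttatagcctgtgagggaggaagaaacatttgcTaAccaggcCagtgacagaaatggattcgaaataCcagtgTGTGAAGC
GSTA1: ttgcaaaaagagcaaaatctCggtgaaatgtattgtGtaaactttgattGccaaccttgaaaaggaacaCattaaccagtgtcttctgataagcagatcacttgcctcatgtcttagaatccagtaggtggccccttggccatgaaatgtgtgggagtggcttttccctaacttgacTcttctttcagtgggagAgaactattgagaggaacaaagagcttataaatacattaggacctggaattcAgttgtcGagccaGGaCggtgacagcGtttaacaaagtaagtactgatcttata
GSTA2: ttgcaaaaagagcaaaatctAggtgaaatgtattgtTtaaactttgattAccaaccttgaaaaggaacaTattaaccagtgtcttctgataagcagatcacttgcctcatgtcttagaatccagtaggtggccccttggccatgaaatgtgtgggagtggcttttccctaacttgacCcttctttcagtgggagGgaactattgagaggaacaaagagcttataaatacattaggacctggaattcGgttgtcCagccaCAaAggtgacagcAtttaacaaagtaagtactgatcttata
The AKR1C1 and AKR1C2 windows were identical at 288 of 292 aligned bases (98.6%), and the GSTA1 and GSTA2 windows at 288 of 300 (96.0%). By contrast, the AKR1C1 window matched the AKR1C3 windows at 78.0% and 79.5% of aligned bases.

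The windows of GCLM (chr1:93909381-93909680, minus strand) and TXNRD1 (chr12:104215529-104215828, plus strand, the first of its 2 windows) are shown because they were the members in which the antioxidant response element core TGACNNNGC was found. Capitals mark the matches, which are read in the printed direction or as its reverse complement.
GCLM: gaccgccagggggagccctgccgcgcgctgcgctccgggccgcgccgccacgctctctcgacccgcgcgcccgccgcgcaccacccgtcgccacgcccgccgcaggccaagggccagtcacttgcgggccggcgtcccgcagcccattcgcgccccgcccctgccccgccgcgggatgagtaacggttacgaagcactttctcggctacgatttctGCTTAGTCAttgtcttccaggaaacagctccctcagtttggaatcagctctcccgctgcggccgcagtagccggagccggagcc
TXNRD1: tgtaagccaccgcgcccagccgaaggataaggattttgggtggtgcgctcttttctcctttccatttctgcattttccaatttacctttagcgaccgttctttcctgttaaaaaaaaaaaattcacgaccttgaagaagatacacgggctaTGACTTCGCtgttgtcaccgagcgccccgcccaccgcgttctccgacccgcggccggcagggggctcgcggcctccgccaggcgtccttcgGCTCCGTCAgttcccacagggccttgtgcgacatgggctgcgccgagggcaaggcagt
In GCLM the match is printed as its reverse complement, GCTTAGTCA, whose leftmost base is at position -34 from the gene start. The first TXNRD1 window holds TGACTTCGC in the printed direction from position -99 and the reverse complement GCTCCGTCA from -8, and the second window holds the reverse complement GCTTTGTCA from -102. Of 35116 promoter windows, 13.3% hold TGACNNNGC on either strand, against 2 of the 10 members. For every motif the share is per window, whereas a member counts if any of its windows matches. AKR1B1, AKR1C3 and TXNRD1 have 2 windows each, so the units differ. The other motifs searched on both strands were the AP-1 site TGACTCA (4.95% of windows, 0 of 10 members), the forkhead site GTAAACA (3.42%, 0 of 10 members) and the TATA box TATAAA (11.5%, 3 of 10 members, namely AKR1C3, GCLC and GSTA1). A TGACTCA followed by GC counts under both of the first motifs. These are matches of letters in a short window and not measured binding sites.

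Reads on genes ranged from 20.63 to 46.55 M per library. The transfected constructs matched the labels for hTERT, p53DD, H-RasV12, MEK-DD and AKT. The cyclin D1 and CDK4R24C constructs were not called between T53D4 and ARPE19 (log2 difference -0.40, SE 0.21, edgeR adjusted p = 0.511, and 0.38, SE 0.15, edgeR adjusted p = 0.382). For CDK4R24C every T53D4 library (82.6 to 105 CPM) still lay above every ARPE19 library (57.8 to 81.6 CPM), while the cyclin D1 libraries overlapped. The CDK4R24C construct stood at a mean of 92.2 CPM in T53D4, 142 in MekDD and 70.7 in ARPE19, against 2380 in RasV12 and 1006 in AKTmyr. The cyclin D1 construct had 146, 270 and 193 CPM in the same order, against 2350 and 858. T53D4 and MekDD below therefore mean the libraries labelled so. Both constructs differ from T53D4 together with the oncogene, most in RasV12 and AKTmyr. The parts of the oncogene and of these constructs cannot be told apart. Of 13 markers of retinal pigment epithelium 11 were in the table. Their summed level was 2454 to 2528 CPM in ARPE19, 1584 to 1943 in T53D4, 856 to 1036 in RasV12, 1121 to 1400 in MekDD and 1333 to 2032 in AKTmyr. Most of that sum was the keratins KRT8 and KRT18, while RPE65, the defining visual-cycle enzyme, had 0 reads in ARPE19 and T53D4 and a mean of at most 0.101 CPM elsewhere. In bulk RNA, fewer cells of a type and less RNA per cell cannot be told apart.

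Levels are CPM (reads scaled to library size and composition), and levels between genes are compared as RPKM (CPM per kilobase of merged exon). TXNRD1, AKR1B1 and NQO1 were the abundant members in every line. In T53D4 they stood at 261 ± 69.6, 187 ± 69.4 and 101 ± 38.8 RPKM (SD, n = 3). GCLM, GCLC, SRXN1 and AKR1C3 followed at 7.22 ± 0.409, 3.54 ± 0.339, 2.83 ± 0.549 and 1.08 ± 0.338 RPKM. GSTA1 had 0.373 ± 0.476 RPKM there, and AKR1C2 and AKR1C1 were the lowest at 0.0025 and 0.0017 RPKM. In RasV12, AKR1C1 and AKR1C2 reached 0.995 ± 0.270 and 0.743 ± 0.150 RPKM, and GSTA1 was last with no read. In AKTmyr the order of the leading genes was AKR1B1 (374 ± 161 RPKM), NQO1 (221 ± 61.5) and TXNRD1 (164 ± 50.4), and GSTA1 came next among the members at 23.0 ± 31.1 RPKM. Even in RasV12, the AKR1C1 level per length was below those of AKR1C3 and of the 6 other members from TXNRD1 to GCLC. Its order with AKR1C3 depends on the length used, which is 8765 bases of merged exon for AKR1C1 and 3911 for AKR1C3. By mean CPM, AKR1C1 stood above AKR1C3 in RasV12, with overlapping libraries. Which of the pair had more transcripts there is therefore not settled.

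**Figure D1:**
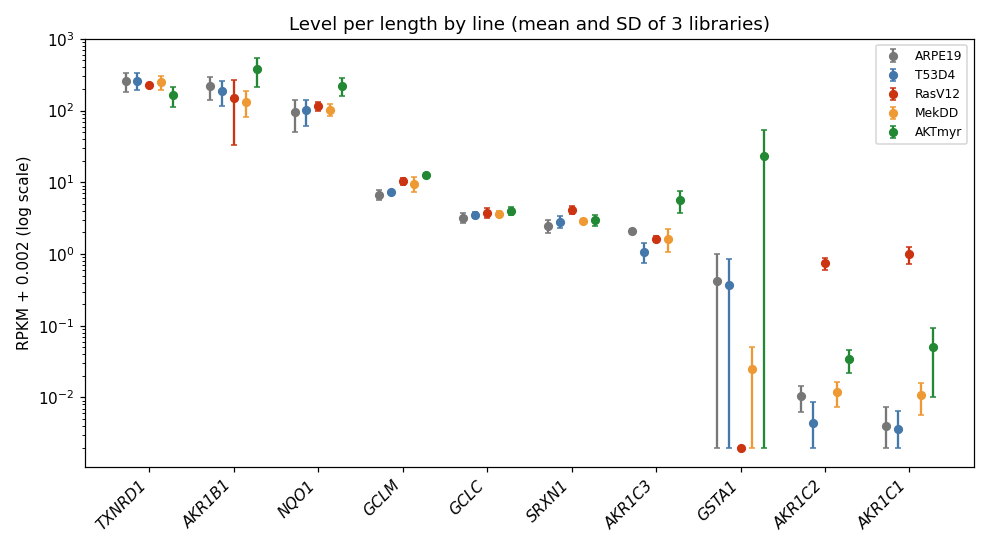
Level per length (RPKM, log scale with a small constant added so that 0 can be drawn) of the 10 members in the 5 lines, as the mean of 3 libraries with the SD, whose lower bar stops at 0 where the SD exceeds the mean. TXNRD1, AKR1B1 and NQO1 lie above the other members in every line, AKR1C1 and AKR1C2 are raised in RasV12, and GSTA1 in AKTmyr.

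AKR1C1 (ENSG00000187134), which inactivates progesterone, lies at chr10:4963253-4983283 on the plus strand of hg38, the build of the deposited annotation. It was detected at a level above 1 CPM only in the 3 RasV12 libraries, where it stood at 6.64, 8.23 and 11.3 CPM in replicates 1, 2 and 3. The AKTmyr libraries had 0.135, 0.330 and 0.834 CPM, and the MekDD libraries 0.0623, 0.127 and 0.0423. ARPE19 and T53D4 each had 2 reads in all, both in replicate 2. RasV12 did not overlap AKTmyr, and AKTmyr did not overlap MekDD, whereas MekDD, ARPE19 and T53D4 overlapped. With 781 reads in RasV12 against 2 in T53D4, the pooled CPM ratio was 409 with an exact 95% interval of 113 to 3380, which covers counting error only, as do all such intervals and limits here. Without T53D4 replicate 2, T53D4 has no read and RasV12 was at least 142-fold higher, with 0 reads set to 3 over the remaining libraries. The ratio of RasV12 to AKTmyr was 20.1 (37.5 without AKTmyr replicate 3) and that of RasV12 to MekDD was 113. The same RasV12 libraries had the lowest summed level of retinal pigment epithelium markers, 856 to 1036 CPM. They also had the highest level of the blood markers in the table, 283 to 344 CPM against 84.0 to 181 in T53D4, nearly all of it CD68, with the defining leukocyte gene PTPRC at a mean of 0.050 CPM. The 1 hepatocyte marker of 3 in the table, SERPINA1, had 17.3 to 29.6 CPM against 5.41 to 7.42 in T53D4 (log2 1.76, edgeR adjusted p = 0.00019). The 3 neuron and photoreceptor markers of 4 in the table summed to 1.35 to 3.92 CPM against 0.524 to 0.650, with the synaptic gene SYP higher (edgeR adjusted p = 0.0043). The endothelial list was lower, at 0.236 to 0.270 CPM against 0.476 to 0.586, as was the list of other epithelia, at 0 to 0.146 against 0.381 to 0.650. The part of these markers in the AKR1C1 and AKR1C2 levels was not tested.

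AKR1C2 (ENSG00000151632), which inactivates dihydrotestosterone, is the neighbour on the opposite strand at chr10:4987400-5018031. RasV12 held 3.69, 5.37 and 5.36 CPM, and AKTmyr held 0.297, 0.154 and 0.167. MekDD had 0.0312, 0.0763 and 0.0845 CPM, ARPE19 0.0293, 0.0512 and 0.0833, and T53D4 1 read in all, in replicate 3. As for AKR1C1, every RasV12 library exceeded every AKTmyr library, every AKTmyr library exceeded every MekDD library, and the remaining lines overlapped. The RasV12 ratio to T53D4 was 468 (447 reads against 1, exact 95% interval 83.6 to 18500), and the ratio to AKTmyr was 23.3. The ratio to T53D4 was 244 without T53D4 replicate 2, and RasV12 was at least 122-fold higher without T53D4 replicate 3, which holds the 1 read. Of the 150-base windows of AKR1C1 transcripts, 10.6% also occur in AKR1C2 transcripts, and 17.0% the other way, so reads of such windows cannot be assigned by sequence and the split between the pair is uncertain.

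AKR1C3 (ENSG00000196139), which makes prostaglandin F and active androgens, follows at chr10:5035354-5107686 on the plus strand and had a different pattern. AKTmyr stood highest, at 30.4, 16.3 and 19.0 CPM. ARPE19 had 8.55, 8.63 and 7.45 CPM, RasV12 6.28, 5.82 and 7.11, MekDD 4.42, 5.95 and 8.79, and T53D4 2.70, 4.82 and 5.14. AKTmyr overlapped no other line. ARPE19 lay above RasV12 and T53D4 without overlap, and RasV12 lay above T53D4 without overlap. MekDD overlapped ARPE19, RasV12 and T53D4. The AKTmyr mean was 5.19 times that of T53D4 and 2.67 times that of ARPE19, whereas the RasV12 and MekDD means lay above T53D4 (1.52 and 1.51 times) and below ARPE19 (the ARPE19 mean was 1.283 and 1.286 times theirs).

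AKR1B1 (ENSG00000085662, chr7:134442356-134459284, minus strand) is aldose reductase, which turns glucose into sorbitol. It stood at 948, 2042 and 1113 CPM in AKTmyr and at 394, 872 and 779 in T53D4. ARPE19 had 490, 1048 and 876 CPM, RasV12 188, 431 and 1011, and MekDD 271, 575 and 615. Neighbouring lines overlapped at every step of their order, though every AKTmyr library exceeded every T53D4 and MekDD library. Replicate 1 was the lowest library in all 5 lines. In AKTmyr the log2 difference from T53D4 was 1.00 (SE 0.53, edgeR adjusted p = 0.201), and all 3 AKTmyr libraries exceeded the T53D4 library of the same replicate number. With the replicate number as a block the difference was 1.06 and passed (edgeR adjusted p = 0.0216).

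**Figure D2:**
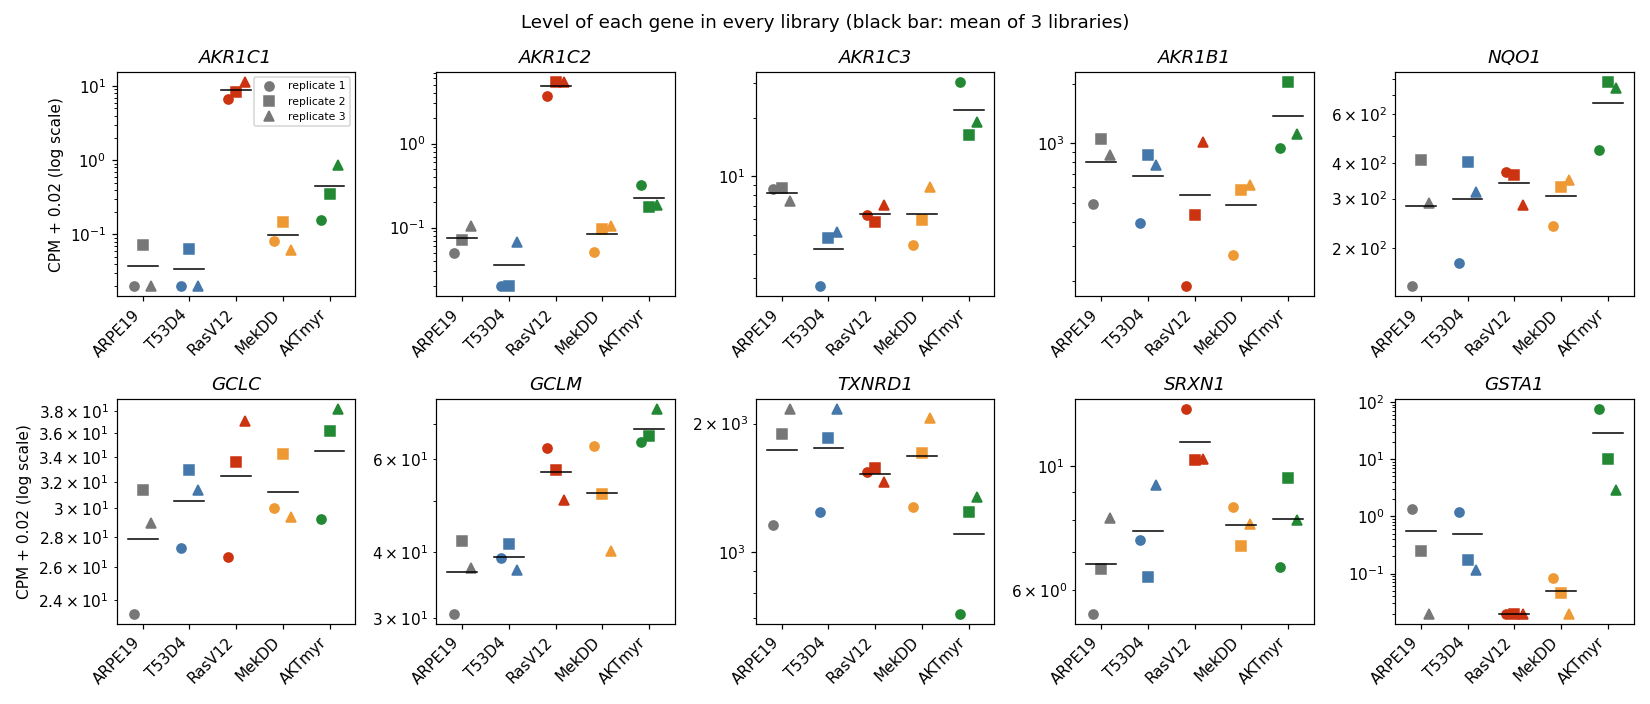
CPM (log scale with a small constant added so that 0 can be drawn) of each member in every library, with the marker shape giving the replicate number and the bar the mean of 3 libraries. AKR1C1 and AKR1C2 are separated in RasV12, AKR1C3 and GSTA1 in AKTmyr, and replicate 1 of GSTA1 is the highest library in ARPE19, T53D4 and AKTmyr.

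GSTA1 (ENSG00000243955, chr6:52791371-52803860, minus strand) encodes an alpha-class glutathione transferase, an enzyme class best known from liver. It had 74.2, 10.0 and 2.92 CPM in AKTmyr, so the 3 vials of that line differed widely. ARPE19 had 1.35, 0.231 and 0 CPM and T53D4 had 1.16, 0.152 and 0.0952. MekDD had 3 reads in all and RasV12 had 0. Every AKTmyr library exceeded every library of the other lines, ARPE19 overlapped T53D4 and MekDD, and T53D4 lay above MekDD without overlap. That last separation rests on 2 reads in T53D4 replicate 3 (0.0952 CPM) against 2 in MekDD replicate 1 (0.0623 CPM). The AKTmyr mean was 61.7 times that of T53D4 (3269 reads against 43) and 974 times that of MekDD by pooled CPM (exact 95% interval 333 to 4720). Against RasV12 it was at least 941-fold higher, and T53D4 was at least 13.7-fold higher than RasV12, with 0 reads set to 3 over the line. These sizes rest on single libraries, since replicate 1 holds 2745 of the AKTmyr reads and 34 of the T53D4 reads. Without AKTmyr replicate 1 the AKTmyr mean was 13.7 times that of T53D4, 239 times that of MekDD and at least 231-fold higher than RasV12. The ratio to T53D4 was 235 without T53D4 replicate 1, the ratio to MekDD 1940 without MekDD replicate 1, and the lower limit against RasV12 508 without RasV12 replicate 2. For T53D4 against RasV12 the lower limit was 4.11 without T53D4 replicate 1, 22.0 without T53D4 replicate 2 and 7.38 without RasV12 replicate 2.

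In AKTmyr, T53D4 and ARPE19 the libraries with more GSTA1 also had more COL1A1, a collagen gene fixed as a fibroblast marker: 335, 54.1 and 13.0 CPM in AKTmyr, 112, 4.32 and 2.29 in T53D4 and 28.9, 2.51 and 1.67 in ARPE19. The summed level of the 4 fibroblast markers, all in the table, ranged from 91.4 to 566 CPM in AKTmyr, 84.2 to 228 in T53D4, 50.9 to 183 in ARPE19, 26.2 to 41.4 in RasV12 and 47.4 to 58.1 in MekDD. Of those markers, LUM and DCN stayed below 1 CPM in every library. The remaining marker, PDGFRB, made up most of the highest sum in ARPE19. Its values per library are not given here, so the order above is shown for COL1A1 alone. The part of whatever these markers track in the GSTA1 level was not tested. GSTA2, the adjacent alpha-class gene, stood at 8.24, 2.27 and 0.458 CPM in AKTmyr and had 12 reads in T53D4, 3 in MekDD and 0 in RasV12. Since 6.9% of the 150-base windows of the GSTA1 transcript also occur in GSTA2, part of the reads of this pair cannot be assigned by sequence. GSTA2 falls outside the rule for named genes and was chosen after its values were seen.

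NQO1 (ENSG00000181019, chr16:69706996-69726668, minus strand) reduces quinones and is a standard NRF2 target. AKTmyr held 447, 780 and 744 CPM, and T53D4 176, 405 and 317. RasV12 had 373, 365 and 284 CPM, MekDD 240, 331 and 348, and ARPE19 146, 412 and 289. All AKTmyr libraries exceeded all libraries of the other lines, which overlapped among themselves. NQO1 rose in AKTmyr by log2 1.13 over T53D4 (SE 0.36, edgeR adjusted p = 0.0381), and was higher in 3 of 3 same-numbered libraries. The call was lost in 5 of 14 alternatives. There edgeR adjusted p was 0.126 without T53D4 replicate 1, 0.0852 without T53D4 replicate 3, 0.104 without AKTmyr replicate 2, 0.0831 without AKTmyr replicate 3 and 0.0639 when the 2 lines were fitted alone. It held in the others, among them the replicate block (edgeR adjusted p = 0.0036) and DESeq2 (adjusted p = 0.0080). The log2 difference stayed between 0.87 and 1.41 over all of them. In RasV12 and MekDD the log2 differences were 0.19 (SE 0.35) and 0.03 (SE 0.35), with edgeR adjusted p = 0.763 and 0.982.

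Glutamate-cysteine ligase, the rate-limiting enzyme of glutathione synthesis, has a catalytic subunit, GCLC, and a modifier subunit, GCLM. GCLM (ENSG00000023909, chr1:93885199-93909456, minus strand) stood at 64.6, 66.5 and 74.7 CPM in AKTmyr, 63.1, 57.4 and 50.2 in RasV12, and 63.6, 51.6 and 40.2 in MekDD. T53D4 had 39.1, 41.5 and 37.0 CPM and ARPE19 30.6, 42.0 and 37.4. Every AKTmyr and RasV12 library exceeded every T53D4 library, while MekDD overlapped T53D4. GCLM rose by log2 0.81 in AKTmyr (SE 0.16, edgeR adjusted p = 0.0042) and stayed called with each library left out in turn, with adjusted p of at most 0.0208 over the alternatives. It rose by log2 0.54 in RasV12 (SE 0.16, edgeR adjusted p = 0.0251), a call that was lost without T53D4 replicate 1 (0.0575), T53D4 replicate 3 (0.0813), RasV12 replicate 1 (0.0895) or RasV12 replicate 2 (0.0645). In MekDD the log2 difference was 0.40 (SE 0.16, edgeR adjusted p = 0.197), higher in 3 of 3 same-numbered libraries.

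GCLC (ENSG00000001084, chr6:53497341-53616970, minus strand) varied little. The lowest of all 15 libraries had 23.2 CPM (ARPE19 replicate 1) and the highest 38.1 (AKTmyr replicate 3), and neighbouring lines overlapped at every step. Its log2 differences from T53D4 were 0.09 in RasV12, 0.03 in MekDD and 0.18 in AKTmyr (SE 0.15 each), with edgeR adjusted p = 0.744, 0.959 and 0.448. The catalytic subunit therefore passed in none of the comparisons in which its partner GCLM was called. Whether the changes of the subunits differ from each other was not tested.

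TXNRD1 (ENSG00000198431, chr12:104215779-104350307, plus strand), the cytosolic thioredoxin reductase, was the lowest in AKTmyr, at 716, 1241 and 1348 CPM. T53D4 had 1243, 1855 and 2160 CPM, ARPE19 1153, 1893 and 2160, MekDD 1273, 1702 and 2057, and RasV12 1540, 1571 and 1455. AKTmyr did not overlap RasV12, but it overlapped T53D4, ARPE19 and MekDD through their replicate 1 libraries. Each AKTmyr library was below the T53D4 library of the same number. The log2 difference of -0.67 (SE 0.28) did not pass (edgeR adjusted p = 0.110), and it passed with the replicate number as a block (edgeR adjusted p = 0.0084). The gene span overlaps that of EID3 on the same strand, so some reads may be ambiguous.

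SRXN1 (ENSG00000271303, chr20:646615-653370, minus strand), which repairs overoxidised peroxiredoxins, stood highest in RasV12, at 12.6, 10.3 and 10.3 CPM. T53D4 had 7.36, 6.31 and 9.24 CPM, AKTmyr between 6.57 and 9.49, MekDD 8.41, 7.17 and 7.86, and ARPE19 5.42, 6.53 and 8.04. No RasV12 library overlapped another line. The log2 difference of RasV12 from T53D4 was 0.54 (SE 0.19, edgeR adjusted p = 0.0595), 0.55 with the replicate block (edgeR adjusted p = 0.0358). The SRXN1 span overlaps AL121758.1 on the same strand.

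**Figure D3:**
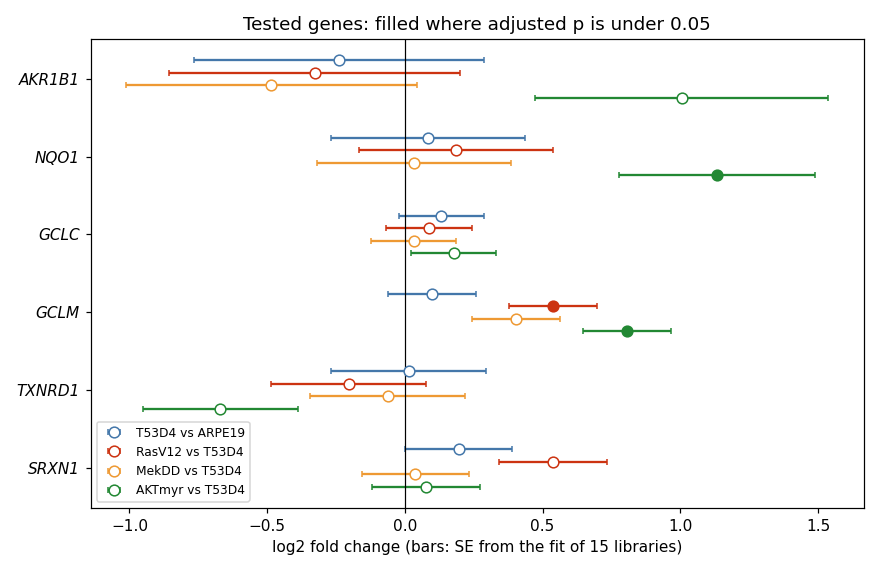
Log2 fold change (x axis) of the 6 tested members in 4 comparisons, with bars of 1 SE from the fit of all 15 libraries and filled points where the edgeR adjusted p is under 0.05. Filled points are GCLM in RasV12 and AKTmyr and NQO1 in AKTmyr, all to the right of 0.

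Between T53D4 and ARPE19, which differ by label in the T53D4 plasmids, 0 of 10 members were called, against 0.154% of all 13599 genes tested (edgeR adjusted p under 0.05). The 10 include AKR1C1 and AKR1C2, which passed the count filter only with the RasV12 libraries, and GSTA1, which passed only with those of AKTmyr. These genes had so few reads in T53D4 and ARPE19 that their lack of a call decides nothing. At an unadjusted p under 0.05 edgeR gave 1 member, against 10.7% of all genes, and DESeq2 called 0. That member was AKR1C3, lower in T53D4 by log2 -0.96 (SE 0.29, edgeR adjusted p = 0.259) and lower in 3 of 3 same-numbered libraries. AKR1C1, with 2 reads in each line, and AKR1C2, with 5 in ARPE19 and 1 in T53D4, showed no difference detectable at this depth. GSTA1 had 46, 9 and 0 reads in ARPE19 and 34, 7 and 2 in T53D4, so the lines overlapped over the wide spread between vials. The median log2 difference was 0.01 over the members, against 0.00 over all genes.

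Against T53D4, 1 of the 6 tested members rose in RasV12 (GCLM) and 0 fell, while 24.4% of all genes tested were called, 10.8% higher and 13.6% lower. In MekDD 0 of 6 were called by edgeR, against 5.1% of all genes, and 0 by DESeq2. At an unadjusted p under 0.05 there was 1 (GCLM), against 17.5% of all genes. In AKTmyr 2 of 6 rose (NQO1 and GCLM) and 0 fell, against 20.1% of all genes, 9.91% higher and 10.2% lower. These comparisons share the T53D4 libraries. With the replicate block, 2 of 6 rose and 0 fell in RasV12, where 35.8% of all genes were called (16.6% higher and 19.2% lower). With it 0 of 6 were called in MekDD, against 11.7% of all genes, and 3 rose and 1 fell in AKTmyr, against 34.8% (16.9% higher and 17.9% lower). The median log2 difference of the 6 was 0.14 in RasV12, 0.03 in MekDD and 0.49 in AKTmyr, against 0.01, 0.00 and -0.01 over all genes.

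**Figure D4:**
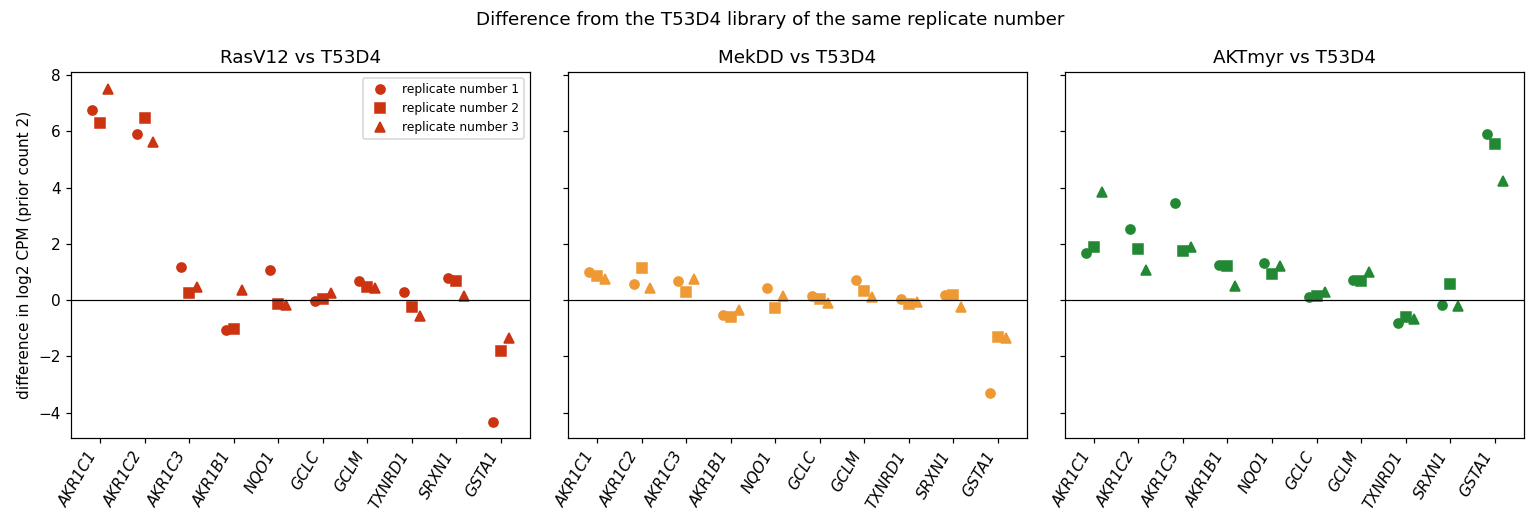
Difference in log2 CPM (prior count 2) between each library of an oncogene line and the T53D4 library of the same replicate number, for the 10 members. In RasV12 the 3 points of AKR1C1 lie between 6.30 and 7.53, and in AKTmyr the 3 points of GSTA1 lie between 4.25 and 5.92.

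The genes that control NRF2 were read next. NFE2L2 itself was level, at 134 ± 6.51 CPM in RasV12, 118 ± 6.30 in MekDD, 135 ± 11.2 in AKTmyr, 128 ± 6.55 in T53D4 and 123 ± 5.40 in ARPE19 (SD, n = 3), with edgeR adjusted p of 0.697, 0.634, 0.599 and 0.909 for RasV12, MekDD, AKTmyr and the T53D4 to ARPE19 comparison. MAFF, a small MAF partner, rose in RasV12 (70.5, 52.8 and 81.2 CPM against 35.0, 23.0 and 25.3 in T53D4, log2 1.30, SE 0.23, edgeR adjusted p = 0.00091). In AKTmyr it fell (7.35 to 8.83 CPM, log2 -1.78, SE 0.23, edgeR adjusted p = 0.00031). All RasV12 libraries lay above and all AKTmyr libraries below the T53D4 libraries. BACH1, the competing repressor, fell in AKTmyr from 47.8, 52.1 and 51.0 CPM to between 31.6 and 34.0 (log2 -0.63, SE 0.11, edgeR adjusted p = 0.0020) and was at a log2 difference of -0.02 in RasV12 (edgeR adjusted p = 0.924).

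KEAP1 fell slightly in both RasV12 and AKTmyr, by 0.35 and 0.34 on the log2 scale (SE 0.11 each, edgeR adjusted p = 0.0259 and 0.0342). The RasV12 call was lost without any 1 of the 6 libraries other than RasV12 replicate 3, and the AKTmyr call without any other than AKTmyr replicate 2, with edgeR adjusted p up to 0.124 and 0.131. MAFG rose in RasV12 (log2 0.46, SE 0.13, edgeR adjusted p = 0.0177), which was lost without T53D4 replicate 2, T53D4 replicate 3 or RasV12 replicate 3 (highest adjusted p 0.0783). SQSTM1, an adaptor that can sequester KEAP1, had log2 differences of -0.52, -0.54 and -0.59 in RasV12, MekDD and AKTmyr (edgeR adjusted p = 0.221, 0.377 and 0.170). It passed with the replicate block in RasV12 (edgeR adjusted p = 0.0230) and AKTmyr (0.0167). MAFK had log2 differences of -0.30, -0.26 and -0.33 (edgeR adjusted p = 0.387, 0.665 and 0.333). In the comparison of T53D4 with ARPE19 none of these regulators was called by edgeR, and the smallest adjusted p was that of MAFG (log2 0.54, SE 0.13, edgeR adjusted p = 0.128). Of all 13 regulators listed, 2 had an unadjusted p under 0.05 there, against 10.7% of all genes, and DESeq2 called 1.

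Around the members, 8 wider lists of related genes were counted: regulators of NRF2, glutathione synthesis and use, thioredoxins and peroxiredoxins, NADPH supply, haem and iron, quinone and carbonyl detoxification, other aldo-keto reductases and other glutathione transferases. They name 105 genes, of which 97 were in the table and 90 were tested. The lists were chosen with earlier results of these data known. Their shares beside those of all genes, here and list by list below, are therefore descriptions. In T53D4 against ARPE19 edgeR called 0 of the 90, against 0.154% of all genes. At an unadjusted p under 0.05 there were 12 of the 90, against 10.7% of all genes. DESeq2 called 3 of the 90 and 188 of all genes. In RasV12 8 rose and 12 fell (22.2% called, against 24.4% of all genes). With the replicate block 35 of 90 were called, against 35.8% of all genes, and 13 were called without T53D4 replicate 2. In MekDD 0 rose and 1 fell (1.11%, against 5.1% of all genes), and 7 were called with the block, against 11.7%. In AKTmyr 20 rose and 4 fell (26.7%, against 20.1% of all genes). The 20 include GSTA2, whose close paralog GSTA1 was used to choose the set. With the block 39 were called, against 34.8% of all genes. Without T53D4 replicate 3 the count was 12, and without AKTmyr replicate 1 it was 14. The median log2 difference over the 90 genes was 0.00 in RasV12, -0.06 in MekDD and 0.11 in AKTmyr.

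**Figure D5:**
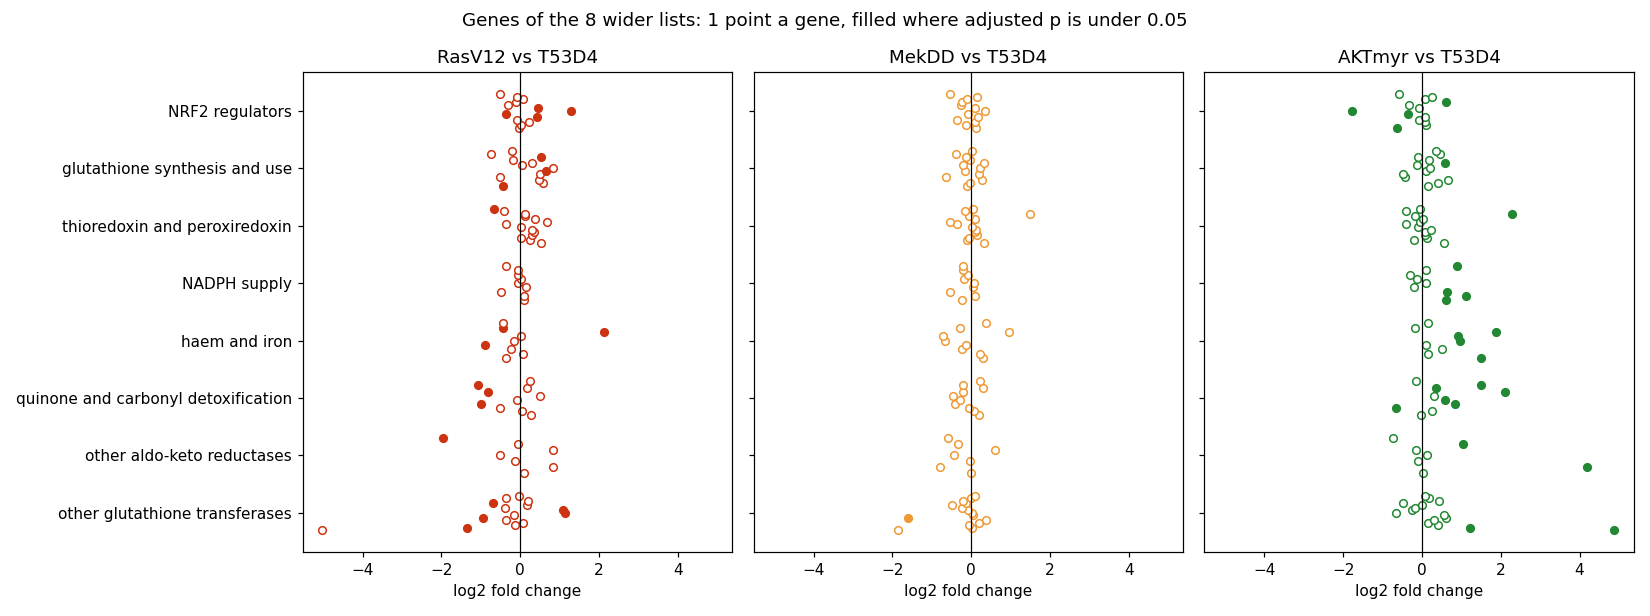
Log2 fold change (x axis) of each tested gene of the 8 wider lists in the 3 oncogene lines against T53D4, filled where the edgeR adjusted p is under 0.05. In AKTmyr 20 filled points lie to the right of 0 and 4 to the left, in RasV12 8 and 12, and in MekDD 0 and 1.

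In AKTmyr the quinone and carbonyl list had 5 of 10 tested genes that rose and 1 that fell, against 9.91% and 10.2% of all genes. PIR, an iron-binding protein and NRF2 target, stood at 15.3, 12.6 and 12.2 CPM against 3.01, 3.51 and 2.67 in T53D4 (log2 2.11, SE 0.24, edgeR adjusted p = 9.3e-05). TRIM16L rose by log2 1.49 (SE 0.18, edgeR adjusted p = 0.00019) and EPHX1, the microsomal epoxide hydrolase, by 0.85 (SE 0.13, edgeR adjusted p = 0.0011). The carbonyl reductase CBR3 fell by 0.66 on the log2 scale (SE 0.20, edgeR adjusted p = 0.0330). In RasV12, 0 of the 10 rose and 3 fell (10.8% and 13.6% of all genes), among them TRIM16L (log2 -1.07, SE 0.18, edgeR adjusted p = 0.00081) and EPHX1 (log2 -1.0, SE 0.14, edgeR adjusted p = 0.00013).

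In the haem and iron list, 4 of 9 rose in AKTmyr and 0 fell, against 9.91% and 10.2% of all genes. In RasV12 1 rose and 2 fell, which is 33.3% called against 24.4% of all genes. HMOX1, the inducible haem oxygenase, stood at 89.7, 163 and 152 CPM in RasV12, 64.3, 137 and 141 in AKTmyr and 76.4, 58.9 and 45.9 in MekDD, against 28.0, 39.2 and 25.9 in T53D4. All 3 oncogene lines lay above T53D4 without overlap. It rose in RasV12 (log2 2.12, SE 0.33, edgeR adjusted p = 0.00039) and AKTmyr (log2 1.88, SE 0.33, edgeR adjusted p = 0.0020), and in MekDD the log2 difference was 0.96 (SE 0.32, edgeR adjusted p = 0.117). The ferritin chains FTL and FTH1 rose in AKTmyr by log2 0.91 (SE 0.23, edgeR adjusted p = 0.0139) and 0.96 (SE 0.29, edgeR adjusted p = 0.0344). Ferrochelatase, FECH, the last enzyme of haem synthesis, fell in RasV12 (log2 -0.90, SE 0.14, edgeR adjusted p = 0.00033), as did HMOX2 (log2 -0.45, SE 0.13, edgeR adjusted p = 0.0206).

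Of 9 genes of NADPH supply, 4 rose and 0 fell in AKTmyr (9.91% and 10.2% of all genes). With the replicate block 4 rose and 1 fell, against 16.9% and 17.9% of all genes. The 1 that fell was PGLS (log2 -0.30, edgeR adjusted p = 0.0244), a gene named after its values were seen. In RasV12 edgeR called 0 of the 9, against 24.4% of all genes, and DESeq2 called 1. At an unadjusted p under 0.05 there was 1, against 35.9% of all genes, and the block called 1, against 35.8%. IDH1, the cytosolic isocitrate dehydrogenase, rose in AKTmyr from 69.1, 104 and 82.4 CPM to 143, 242 and 173 (log2 1.13, SE 0.26, edgeR adjusted p = 0.0087). The transketolase TKT rose by log2 0.90 (SE 0.23, edgeR adjusted p = 0.0152) and the malic enzyme ME1 by 0.64 (SE 0.17, edgeR adjusted p = 0.0187). Among 7 other aldo-keto reductases that were tested, 2 rose in AKTmyr (28.6%, against 9.91% of all genes), the potassium-channel subunit KCNAB2 (log2 1.04, SE 0.33, edgeR adjusted p = 0.0403) and AKR1B10, which reduces retinaldehyde. AKR1B10 was at 1.76, 5.13 and 6.96 CPM in AKTmyr against 0, 0.325 and 0.429 in T53D4 (ratio of mean CPM 18.4, edgeR adjusted p = 0.0086, and a ratio of 12.2 without T53D4 replicate 1 and 28.4 without T53D4 replicate 3), and was named after its values were seen because its mean is under the 5 CPM of the naming rule. AKR1A1, the general aldehyde reductase, had a mean of 49.8 CPM in AKTmyr and 48.6 in T53D4.

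Of the other glutathione transferases, 2 of 15 rose (13.3%) and 3 fell in RasV12, near the shares of all genes (10.8% and 13.6%). Those that rose were the omega-class genes GSTO1 (248, 282 and 282 CPM against 99.4, 142 and 128 in T53D4, log2 1.14, SE 0.22, edgeR adjusted p = 0.0020) and GSTO2 (log2 1.08, SE 0.19, edgeR adjusted p = 0.00084). The 3 that fell were GSTA4 (log2 -1.35, SE 0.33, edgeR adjusted p = 0.0087), GSTM3 (log2 -0.95, SE 0.28, edgeR adjusted p = 0.0257) and GSTZ1 (log2 -0.69, SE 0.18, edgeR adjusted p = 0.0137). GSTM3 was the 1 gene of the wider lists called in MekDD, at 12.5, 9.94 and 8.49 CPM against 37.6, 33.0 and 23.4 in T53D4 (log2 -1.60, SE 0.29, edgeR adjusted p = 0.0047). In AKTmyr 2 of 15 rose and 0 fell, against 9.91% and 10.2% of all genes, and with the replicate block 6 rose and 2 fell, against 16.9% and 17.9%. The 2 called without the block were GSTA4 (30.1, 13.9 and 14.5 CPM against 9.31, 8.74 and 6.90, log2 1.23, SE 0.32, edgeR adjusted p = 0.0165) and GSTA2. GSTA2 is a close paralog of GSTA1, by which the set was chosen, so its call is not independent of that choice. GSTP1, the widely expressed pi-class gene, had a mean of 451 CPM in AKTmyr and 510 in T53D4.

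Of 13 tested glutathione genes, 2 rose and 1 fell in RasV12 (23.1% called, against 24.4% of all genes). With the replicate block 4 rose and 2 fell, against 16.6% and 19.2% of all genes. The glutathione peroxidase GPX1 rose in RasV12 (log2 0.66, SE 0.16, edgeR adjusted p = 0.0080) and GSS, which completes glutathione, rose there as well (log2 0.54, SE 0.16, edgeR adjusted p = 0.0262), while the conjugate exporter ABCC1 fell (log2 -0.44, SE 0.14, edgeR adjusted p = 0.0339). Of 14 thioredoxin and peroxiredoxin genes, edgeR called 1 in RasV12 (7.14%, against 24.4% of all genes), TXNRD3, which fell (log2 -0.67, SE 0.17, edgeR adjusted p = 0.0115). With the replicate block 5 of the 14 rose and 3 fell there, against 16.6% and 19.2% of all genes, and DESeq2 called 2. In AKTmyr 1 gene of each list rose, against 9.91% of all genes. With the block 2 of each rose and 2 of the thioredoxin list fell, against 16.9% and 17.9% of all genes. GPX8 rose (log2 0.58, SE 0.16, edgeR adjusted p = 0.0211), as did TXNIP, an inhibitor of thioredoxin, at 300, 144 and 125 CPM against 65.9, 23.7 and 28.1 (log2 2.27, SE 0.69, edgeR adjusted p = 0.0336).

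Of the 18 list genes that the naming rule took in RasV12, 9 stayed called with each of 6 libraries left out, and of the 18 in AKTmyr 7 did. All 18 in each line held with the replicate block and with DESeq2. With the 2 lines fitted alone 15 were kept in RasV12, where MAFG, GSK3B and KEAP1 were lost, and 13 in AKTmyr, where NFE2L1, KEAP1, FTH1, CBR3 and KCNAB2 were lost. Without the replicate 1 libraries of all lines, a setting chosen after seeing the data, 13 were kept in RasV12 and 10 in AKTmyr. In RasV12 the stable calls were MAFF, GPX1, HMOX1, FECH, TRIM16L, EPHX1, GSTO1, GSTO2 and GSTA4, and in AKTmyr MAFF, BACH1, IDH1, HMOX1, PIR, TRIM16L and EPHX1. In AKTmyr the most were lost without T53D4 replicate 3 (10 of 18) and without AKTmyr replicate 1 (9 of 18, among them TKT, FTH1, TXNIP and GSTA4), and 7, 6, 5 and 1 were lost without T53D4 replicate 1, T53D4 replicate 2, AKTmyr replicate 2 and AKTmyr replicate 3. In RasV12 6 were lost without T53D4 replicate 2, 6 without T53D4 replicate 3, 5 without RasV12 replicate 2 and 4 without each of the others. The highest adjusted p reached was 0.210 in both lines (edgeR). In MekDD the GSTM3 call held throughout, with adjusted p of at most 0.0300 when 1 library was left out.

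The genes whose log2 CPM followed AKR1C1 most closely over the 15 libraries, by Pearson r among 11130 genes, were STEAP1 (0.960), THBD (0.960), TAOK3 (0.957), ST3GAL1 (0.956) and ABCC9 (0.953). THBD, thrombomodulin, had 146 ± 25.1 CPM in RasV12 against 10.9 ± 2.16 in AKTmyr and 4.98 ± 1.70 in T53D4 (SD, n = 3). STEAP1, a metalloreductase, had 26.4 ± 2.92 CPM in RasV12 against 4.92 ± 2.35 and 2.60 ± 0.635. For GSTA1 the closest were SPARC (0.969), TSKU (0.965), RHOB (0.964), LAMC1 (0.964) and ZNF536 (0.964). SPARC, a matrix glycoprotein, had 3552 ± 1845 CPM in AKTmyr, 1281 ± 566 in T53D4 and 525 ± 55.8 in RasV12. These coefficients are a description: the 15 libraries fall into 5 lines and are not independent points.

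On the short arm of chromosome 10, which holds AKR1C1, AKR1C2 and AKR1C3, split from the long arm at the widest gap between genes, the 102 tested genes had a median log2 difference of -0.33 in RasV12, with 3 higher and 42 lower than T53D4. In MekDD and AKTmyr the median was 0.07 and 0.00. Of all genes tested, 10.8% were higher and 13.6% lower in RasV12. The part of the arm in the AKR1C1 and AKR1C2 levels was not tested. The long arm of chromosome 10 went the other way in RasV12, with a median of 0.31 over 329 genes, 99 higher and 31 lower. The 93 genes of the short arm of chromosome 20, which holds SRXN1, had medians of 0.09 in RasV12, 0.03 in MekDD and 0.22 in AKTmyr. In the same order, the 194 genes of its long arm had medians of 0.29, -0.09 and -0.11.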

How the data were processed

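Raw read counts per gene, as deposited by the authors in 1 table, were the unit analysed. The submitters' processing notes name deepTools 3.2.0, DESeq2 1.28.1, fastp 0.20.0, featureCounts 1.6.4, HISAT2 2.1.0, SAMtools 1.9 and build hg38 without roles or settings, and strand use in counting is not given in the sources used here. The table has no row with fewer than 10 reads in total. The kit is directional, per the labels' protocols. All 15 columns matched a sample label.

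The 7 construct rows were left out and 9 gene rows have no symbol. With filterByExpr (minimum count 10), 13599 of 15510 genes were tested in R 4.3.3 with edgeR 4.0.16 (quasi-likelihood F test) on all 15 libraries with the line as factor and TMM factors. P-values were adjusted over all tested genes by the Benjamini-Hochberg method, and a gene was called under 0.05. CPM and RPKM were computed here from the deposited counts, RPKM with the merged exon length of the deposited annotation. A line with 0 reads was set to 3 reads over its libraries, and ratios with 1 to 3 reads carry an exact 95% binomial interval. Reads have no molecular identifiers.

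Members and lists were chosen with earlier results of these data known. The naming rule took all members, 7 NRF2 regulators (NFE2L2, KEAP1, BACH1, SQSTM1, MAFF, MAFG and MAFK), up to 3 called rises and 3 called falls per list and comparison with a mean of 5 CPM or more in the higher of the lines, and the 5 genes most like AKR1C1 and GSTA1. Same-numbered libraries deviated together in every comparison (correlation of deviations from the line means over genes 0.141 to 0.644, against -0.554 to 0.24 for different numbers), so the numbers pair the libraries. This comes from the data, since the labels do not say what a number shares. The alternatives tried were DESeq2 1.42.0, median-ratio size factors, no count filter, 2 lines alone, ARPE19 as reference, a replicate block and each library left out. The code was tested on simulated data.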

Additional observations from a re-analysis of the deposited data

Results flagged for a closer look

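For 11 genes among the members and the wider lists, every library of one oncogene line lay above all T53D4 libraries and every library of another lay below them. The share of all tested genes with this pattern is not given here, so the count says nothing particular to these genes. The difference between the oncogene lines themselves was not tested. GSTA1, whose difference between oncogene lines was used to choose the set, was above T53D4 in AKTmyr (mean 29.03 CPM) and below it in RasV12 and MekDD. The separation from MekDD rests on 2 reads in the lowest T53D4 library against 2 in the highest MekDD library. TRIM16L (68.9 CPM in AKTmyr), GSTA4 (19.5 CPM) and PIR (13.3 CPM) were above T53D4 in AKTmyr and below it in RasV12. EPHX1 (69.2 CPM in AKTmyr) was above in AKTmyr and below in both RasV12 and MekDD. NFE2L1 (810 CPM in AKTmyr), ME1 (64.6 CPM), FTH1 (2331 CPM) and FTL (2322 CPM) were above in AKTmyr and below in MekDD. The opposite order held for MAFF (68.2 CPM in RasV12) and GSTO1 (271 CPM in RasV12), which were above T53D4 in RasV12 and below it in AKTmyr.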

How the results depend on the processing

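Main counts are in brackets. For members called, RasV12 gave (1) 2 with DESeq2, 2 with the replicate block, 2 with ARPE19 as reference and 0 to 1 with 1 library left out, and AKTmyr (2) gave 1 with the 2 lines alone, 4 with the block and 1 to 2 with 1 library left out. For genes of the wider lists, T53D4 against ARPE19 (0) gave 3 with DESeq2 and 1 with the block, RasV12 (20) gave 35 with the block and 13 to 17 with 1 library left out, MekDD (1) gave 6 with DESeq2, 7 with the block and 2 without the replicate 1 libraries of all lines, a setting chosen after seeing the data, and AKTmyr (24) gave 39 with the block and 12 to 26 with 1 library left out. For all genes, T53D4 against ARPE19 (21) gave 188 with DESeq2, 2 with the 2 lines alone, 232 with the block, 7 without the replicate 1 libraries and 1 to 6 with 1 library left out. RasV12 (3313) gave 2534 to 2862 with 1 library left out. MekDD (694) gave 1116 with DESeq2, 1589 with the block and 360 to 600 with 1 library left out. AKTmyr (2738) gave 1449 with the 2 lines alone, 4738 with the block, 1730 without the replicate 1 libraries and 1611 to 2669 with 1 library left out. Leaving a library out leaves fewer samples to test, and the cause of the other differences was not tested. Of the members' log2 fold changes, AKR1C3 turned with ARPE19 as reference, to -0.36 in RasV12 and -0.37 in MekDD. Differences from T53D4 that were not called also changed sign. The ranges given for the oncogene lines are over all alternatives, the fit with ARPE19 as reference included. In RasV12 the sign changed for AKR1B1 (-1.14 to 0.09), NQO1 (-0.14 to 0.47) and GCLC (-0.02 to 0.22). In MekDD it changed for NQO1 (-0.23 to 0.31), GCLC (-0.04 to 0.16), SRXN1 (-0.08 to 0.23) and TXNRD1 (-0.25 to 0.12), and in AKTmyr for SRXN1 (-0.07 to 0.27). Between T53D4 and ARPE19 the sign changed for AKR1C1 (-2.61 to 2.63), GSTA1 (-2.03 to 1.73), AKR1B1, NQO1, GCLM and TXNRD1 (-0.50 to 0.46 over these 4). Fitted differences of genes with few reads kept their sign in the oncogene lines but moved. AKR1C1 ranged from 8.06 to 11.1 in RasV12, 3.33 to 6.69 in AKTmyr and 1.26 to 4.45 in MekDD. In the same order AKR1C2 ranged from 6.43 to 10.3, 1.92 to 5.81 and 0.26 to 4.16, and GSTA1 from -7.41 to -5.14, 3.80 to 7.74 and -4.58 to -1.94. The lowest AKR1C2 values came with ARPE19 as reference, and against T53D4 the lowest were 7.64, 3.11 and 1.47. The paired analysis changed the calls of AKR1B1, TXNRD1 and SRXN1 as given above and no other call of a member. At this depth AKR1C1 and AKR1C2 cannot be compared between ARPE19 and T53D4, nor GSTA1 between MekDD and RasV12. Leaving each library out of the ratios between lines was chosen after seeing the data.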
